A study of Mus musculus with 8 samples.

Results

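Members of the RGS family (Rgs2, Rgs3, Rgs4, Rgs5, Rgs7, Rgs9, Rgs10, Rgs11, Rgs16 and Rgs17) were followed in the islets of mice on regular chow or a high fat diet. A probe set, the group of array probes read out as 1 value, was taken where its annotation named 1 of these genes and no other gene. This gave 26 probe sets for these 10 genes, of the 45101 probe sets of the array. RGS proteins (regulators of G protein signalling) bind the active, GTP-bound α subunit of a heterotrimeric G protein and speed up its hydrolysis of GTP, which ends the signal of the receptor. In islets, receptors coupled to Gi/o hold back insulin secretion and receptors coupled to Gq/11 promote it, and RGS proteins differ in which of these α subunits they act on. The family is divided by sequence into subfamilies, of which R4 (Rgs2, Rgs3, Rgs4, Rgs5 and Rgs16), R7 (Rgs7, Rgs9 and Rgs11), R12 (Rgs10) and RZ (Rgs17) were represented.

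All samples were islets of male C57BL/6J mice, a strain that in the stock used lacks functional nicotinamide nucleotide transhydrogenase (Nnt) on either diet. The mice were weaned at 4 weeks of age to regular chow (NC, 4 kcal% fat per the methods) or to a diet with 45 kcal% fat (HF). They stayed on the diet for 12 weeks according to the labels and for 14 weeks according to the methods. There were 4 NC samples (replicates 1, 2, 4 and 5) and 4 HF samples (replicates 21 to 24), each on 1 array. Islets of 2 mice were pooled for every sample, so n is a number of pools. Islets were released with collagenase, separated on a Ficoll gradient and picked by hand, so that vessels, nerves and immune cells inside or attached to them were also measured.

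The values were GCRMA intensities, which have no unit and allow a probe set to be compared between samples but not with another probe set. The median over all probe sets was 13.0 to 13.8 in the 8 samples. The islet label was checked on markers. A summed intensity of a list is weighted to its brightest probe sets and was compared only between samples. The 12 measured beta cell markers summed to 278697 to 284019 in NC and 293983 to 307333 in HF, and 0 of them passed the test. Acinar cells were present on both diets, with 8 measured markers of which 0 passed (352842 to 456077 in NC and 386193 to 449285 in HF). Markers of several other cell types were lower in HF. Of the 11 fibroblast and stellate cell markers 10 fell, with a median log2 fold change of -2.42 (summed intensity 13414 to 19234 in NC and 2661 to 4776 in HF), and of the 8 measured Schwann cell and glia markers 6 fell, with a median of -1.23 (1683 to 1830 in NC and 523 to 697 in HF). Of the 10 measured pericyte and smooth muscle markers 9 fell (summed intensity 4891 to 5835 in NC and 2134 to 2846 in HF), and of the 14 measured macrophage and monocyte markers 7 fell (6235 to 7286 in NC and 3939 to 4793 in HF). The count of macrophage markers was 11 with the arrays scaled on beta cell markers and 4 at a 2-fold limit. Among macrophage markers, Itgam and Cd163 were too dim to be retained. In whole islets, fewer cells of a type and less RNA per cell cannot be told apart.

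Of the RGS genes Rgs10 fell in HF islets, and the other 9 genes did not pass the test in either direction. A gene or probe set is said to have risen or fallen where the adjusted p of limma was under 0.05 and the mean log2 values differed by 1.5-fold or more. Of the 26 probe sets 24 were bright enough to be retained for the test, and of these 0 were higher, 1 was lower and 23 did not pass. Among all retained probe sets 3.70% passed (3.06% lower and 0.644% higher). Without the fold limit 2 of the 24 passed, those of Rgs10 and the brightest of Rgs5, where the share of all retained probe sets was 6.16%. At an unadjusted p under 0.05 there were 5 of 24, with 20.8% of all retained probe sets. The NC and HF values did not overlap on 5 of the 24 probe sets (14.7% of all retained probe sets), with HF below NC on 4 (background 7.84%) and above NC on 1 (background 6.81%). Counted with the brightest retained probe set of each gene, 1 of 10 genes was lower (4.80% of all 12299 genes), 2 had an adjusted p under 0.05 at any fold (8.96%) and 4 had groups that did not overlap (16.1%).

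The differences were small. Log2 fold changes (HF minus NC, on the log2 scale of intensity) ran from -0.85 to 0.60 over the 24 probe sets, and their median was -0.18, with 0.02 over all retained probe sets. By gene the median was -0.25, with 0.00 over all genes, and 6 of the 10 genes lay below 0. On the brightest probe set of 6 of the 10 genes the 95% interval of the difference stayed within 1.5-fold in either direction. This was true of 81.1% of all genes, and on those 6 probe sets a larger change of the measured intensity lay outside the interval. For Rgs3, Rgs4, Rgs10 and Rgs16 the interval of the brightest probe set reached past 1.5-fold. So did that of dimmer probe sets of Rgs2 (1447830_s_at and 1443250_at) and Rgs5 (1420942_s_at). Of all 24 retained probe sets 13 had an interval within 1.5-fold.

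**Figure D1:**
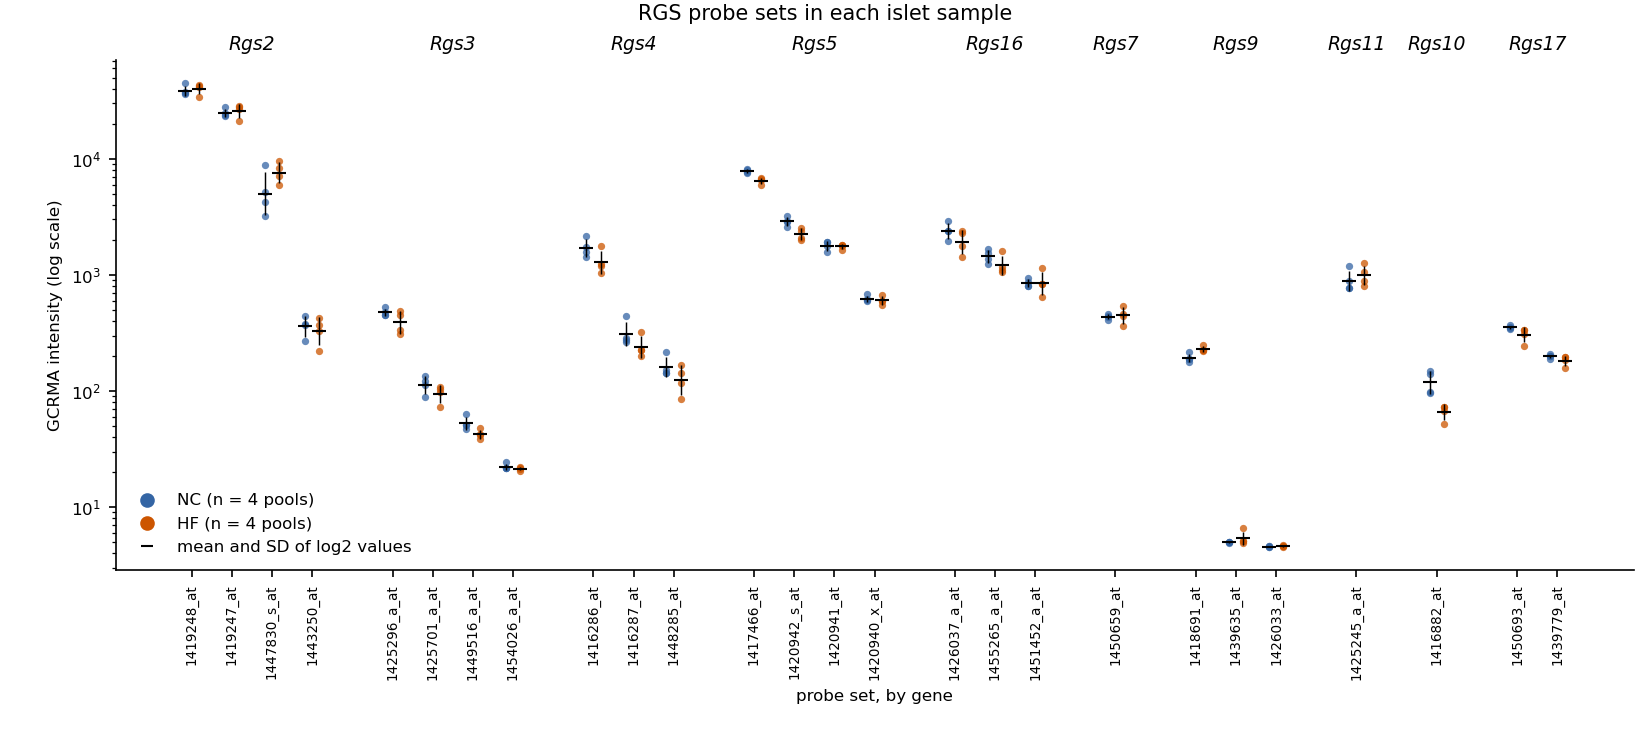
GCRMA intensity (log scale) of the 26 RGS probe sets in each of the 4 NC (blue) and 4 HF (orange) pools, ordered by gene, with bars at each group's mean log2 value and its SD. Rgs10 is the only probe set on which the groups do not overlap and differ by more than 1.5-fold, and the 2 dim Rgs9 probe sets lie between 4.54 and 6.56 in every sample.

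Rgs10, the R12 member, is a short protein made of little more than its RGS domain and is best known from immune cells and microglia. It had 1 probe set (1416882_at). Its intensity was 140 in NC replicate 1, 149 in replicate 2, 98.9 in replicate 4 and 95.5 in replicate 5. In HF it was 52.3, 73.2, 72.9 and 66.9 in replicates 21 to 24, and values of other genes follow in the same order. All 4 HF samples were thus below all 4 NC samples, and the NC samples stood as a higher pair (replicates 1 and 2) and a lower pair. Mean intensity was 121 ± 27.6 with NC and 66.3 ± 9.78 with HF (n = 4 pools each, SD). By the mean log2 values HF was 1.80-fold lower. On the log2 scale this was -0.85 (standard error 0.18, 95% interval -1.26 to -0.44, adjusted p = 0.0314 over probe sets and 0.0210 over genes, limma). The exact two-sided permutation p was 0.0286, the smallest that 4 against 4 samples allow.

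The call of Rgs10 lay close to its threshold. When 1 sample was left out, the log2 fold change stayed between -0.95 and -0.74, and the adjusted p over probe sets ran from 0.0335 to 0.0858. The call was lost without NC replicate 1 or 2 and without any single HF sample, and it was kept without NC replicate 4 or 5. It was also lost when all 45101 probe sets were tested (adjusted p = 0.0709).

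Rgs10 was set beside the macrophage markers, a comparison chosen after its value was seen. The 14 markers had a mean log2 fold change of -0.83, with Cd14 at -2.06, Csf1r at -0.77 and Aif1 at -0.25. The difference between Rgs10 and the mean of the markers was -0.02 (exact permutation p = 0.943), with 5 markers below Rgs10 and 9 above it. Since the values were known when the comparison was chosen, this p-value cannot serve as a test of likeness. The sign of the difference turned with other settings, between -0.11 and 0.11 when 1 sample was left out. What part the lower macrophage markers, or those of fibroblasts, pericytes and Schwann cells, had in the value of Rgs10 was not tested. The genes with the most similar profile over the 8 samples were Col8a1, a collagen chain (root mean square difference of log2 values 0.114), Cyba, a subunit of the phagocyte NADPH oxidase (0.134), and Ppp1r14a, an inhibitor of myosin phosphatase (0.134), out of 12289 genes compared. Their log2 fold changes were -0.73, -0.90 and -0.74, respectively.

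Rgs5, an R4 member known as a marker of pericytes, the contractile cells around small vessels, was lower in HF on its brightest probe set (1417466_at), by less than 1.5-fold. In NC its intensity was 8155, 7734, 7541 and 8004 in replicates 1, 2, 4 and 5. In HF it was 5965, 6762, 6520 and 6635 in replicates 21 to 24. The groups did not overlap, and both were tight. Its log2 fold change was -0.28 (standard error 0.06, adjusted p = 0.0294, limma; exact permutation p = 0.0286), a 1.22-fold difference, so the adjusted p was under 0.05 and the fold limit was not reached. Leaving out 1 sample gave adjusted p-values of 0.0439 to 0.0834, and the adjusted p stayed under 0.05 only without NC replicate 4 or HF replicate 22.

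The other probe sets of Rgs5 were not alike. The probe set 1420942_s_at, whose suffix marks probes shared by more than 1 transcript, lay between 2609 and 3215 in NC and between 1986 and 2534 in HF. Here too the groups did not overlap, with a log2 fold change of -0.37 (adjusted p = 0.0719, limma). On 1420941_at the difference was -0.02 (95% interval -0.21 to 0.16), and on 1420940_x_at, whose suffix marks probes that may bind other transcripts, it was -0.05 (-0.23 to 0.13). On this pair of probe sets the NC and HF samples overlapped.

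Rgs5 was set beside the pericyte and smooth muscle markers, a comparison also chosen after its value was seen. The 10 markers had a mean log2 fold change of -1.01, among them Acta2, smooth muscle actin (-1.43), Abcc9, a potassium channel subunit of pericytes (-0.83), and Pdgfrb, the pericyte PDGF receptor (-0.64). Of the 10 markers 9 lay below Rgs5, and Des (-0.26) lay above it. The difference between Rgs5 and the mean of the markers was 0.73 on the log2 scale (exact permutation p = 0.0286, or 0.0571 adjusted over this comparison and that of Rgs10). Since 9 of the 10 markers were known to have fallen when the comparison was chosen, neither p-value can serve as a test of Rgs5. The difference was 0.67 to 0.80 when 1 sample was left out, and 0.47 with no filter on low values, where 4 dim markers joined the list. What part the lower markers had in the value of Rgs5 was not tested.

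**Figure D2:**
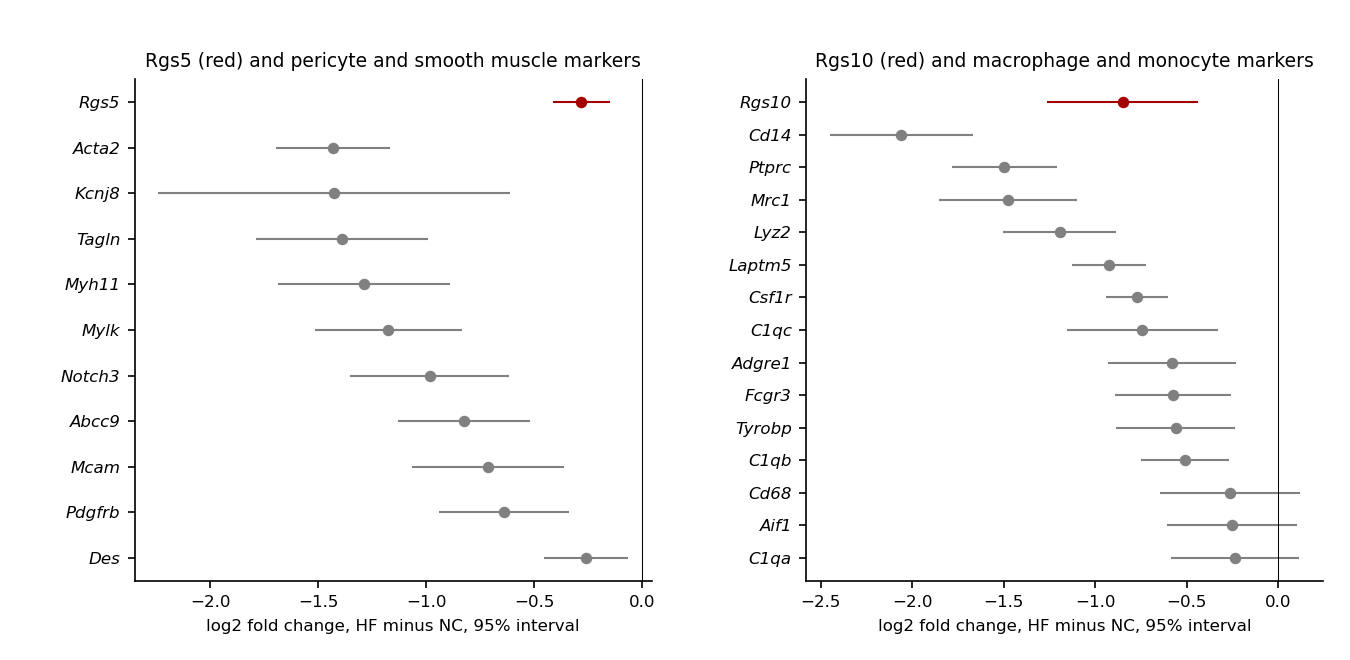
Log2 fold change (HF minus NC) with its 95% interval from limma for Rgs5 beside the 10 measured pericyte and smooth muscle markers (left) and for Rgs10 beside the 14 measured macrophage and monocyte markers (right), with 1 probe set per gene. Rgs5 lies at the upper end of its markers, at -0.28, and Rgs10 within the range of its markers, at -0.85.

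Rgs4, which acts on Gi/o and Gq α subunits and is known to dampen muscarinic signalling in beta cells, did not pass on any of its 3 probe sets. It is the neighbour of Rgs5 on the chromosome, with 0 annotated genes between them. On the brightest probe set (1416286_at) the intensity was 2163, 1728, 1575 and 1422 in NC and 1236, 1781, 1046 and 1199 in HF. HF replicate 22 lay among the NC samples and the other 3 HF samples below all of them. The log2 fold change was -0.40 (95% interval -0.83 to 0.03, adjusted p = 0.270, limma), and on the other probe sets it was -0.37 and -0.38. On all 3 probe sets NC replicate 1 was the highest NC sample and HF replicate 22 the highest HF sample.

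Rgs2, which is selective for Gq α subunits, had a nearly equal intensity on both diets on its 2 brightest probe sets. On 1419248_at it was 35913, 37325, 44744 and 36884 in NC and 42875, 33897, 41303 and 42757 in HF. The log2 fold change was 0.05 (95% interval -0.18 to 0.29, adjusted p = 0.839, limma), and on 1419247_at it was 0.06. Its sign was negative on both (-0.04 each) when the arrays were scaled on beta cell markers. The probe set 1447830_s_at spread widely, from 3231 to 8812 in NC and from 5890 to 9479 in HF, with a log2 fold change of 0.60 (95% interval -0.08 to 1.29, adjusted p = 0.303, limma). The dimmest (1443250_at) had -0.14. HF replicate 22 was the lowest HF sample on all 4 probe sets.

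Rgs3, which acts on Gi/o and Gq α subunits, had negative differences on all 4 probe sets, and none passed. On the brightest (1425296_a_at) the intensity was 527, 479, 450 and 449 in NC and 486, 312, 333 and 454 in HF, so that HF replicates 21 and 24 lay within the NC range and 22 and 23 below it. This gave a log2 fold change of -0.29 (95% interval -0.63 to 0.06, adjusted p = 0.338, limma). On the other probe sets it was -0.26 (1425701_a_at), -0.31 (1449516_a_at, adjusted p = 0.136, limma) and -0.06 (1454026_a_at).

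Rgs16, a regulator of Gi/o and Gq signalling found in endocrine cells of the developing pancreas, overlapped between diets on its 3 probe sets. On the brightest (1426037_a_at) the intensity was 2400, 2385, 1964 and 2892 in NC and 1762, 1419, 2282 and 2403 in HF. Replicates 21 and 22 were below all NC samples and replicates 23 and 24 among them. On the log2 scale the difference was -0.31 (95% interval -0.74 to 0.12, adjusted p = 0.402, limma), and it was -0.26 on 1455265_a_at and -0.00 on 1451452_a_at.

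Over the R4 genes 0 of 5 passed, and 4 of 5 lay below 0 on their brightest probe set (49.6% of all genes did), where Rgs2 was the gene above 0 and turned with the scaling on beta cell markers. The median of the R4 genes was -0.29.

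**Figure D3:**
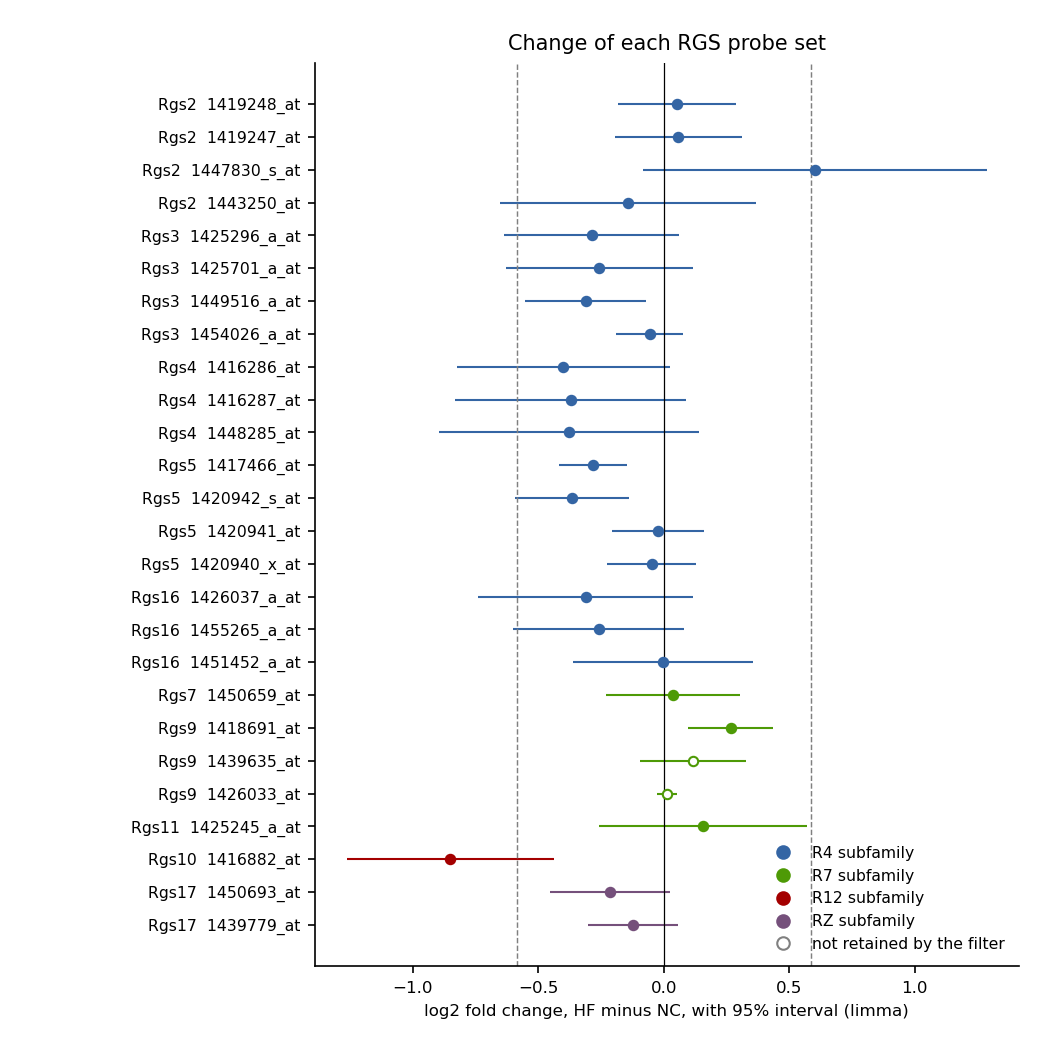
Log2 fold change (HF minus NC) of each of the 26 RGS probe sets with its 95% interval from limma, coloured by subfamily, where dashed lines mark 1.5-fold in either direction and open circles the 2 probe sets that were not retained. Only the interval of Rgs10 lies below 0 with its centre past the dashed line, and 13 of the 24 retained probe sets have an interval inside both lines.

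The R7 proteins carry a domain that binds Gnb5, the β5 subunit, without which they are unstable, and they act on Gi/o α subunits. All 3 R7 genes lay above 0, where 49.6% of all genes lay below 0, and none passed. Rgs7 lay below 0 when the arrays were scaled on beta cell markers or HF replicate 23 was left out. Rgs9, known for its splice forms in photoreceptors and in the striatum, was higher in all HF samples than in all NC samples on its bright probe set (1418691_at). The intensity was 177, 188, 215 and 188 in NC and 225, 221, 227 and 249 in HF. On the log2 scale this was 0.27 (standard error 0.07, adjusted p = 0.0772 over probe sets and 0.0607 over genes, limma; exact permutation p = 0.0286), a 1.20-fold difference. Its 2 dim probe sets (1439635_at and 1426033_at) read 4.54 to 6.56 in all samples, under the lowest level of retained probe sets (8.82), and gave no measure of a change.

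Rgs7 (1450659_at) read 407, 436, 457 and 444 in NC and 439, 363, 544 and 461 in HF. The HF samples spread on both sides of the NC samples, and the log2 fold change was 0.04 (95% interval -0.23 to 0.30, adjusted p = 0.910, limma), or -0.06 when the arrays were scaled on beta cell markers. Rgs11 (1425245_a_at) read 765, 773, 883 and 1184 in NC and 892, 1050, 1257 and 809 in HF. Its groups overlapped, with a log2 fold change of 0.16 (95% interval -0.26 to 0.57, adjusted p = 0.696, limma).

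Of the 5 genes listed as partners of R7 proteins 3 were measured. Gpr158, a receptor that brings R7 complexes to the membrane, had a mean of 144 ± 19.2 with NC and 248 ± 71.1 with HF (n = 4 pools each, SD), and its samples did not overlap (123 to 165 against 191 to 349). Its log2 fold change was 0.75 (standard error 0.19, adjusted p = 0.0437 over genes, limma), which counts as a rise. Adjusted over probe sets, 0 of its 2 probe sets passed, and the other had 0.45. The rise was lost with no filter (adjusted p = 0.0841), with the arrays scaled on beta cell markers (0.0621), with the mean of its probe sets (0.140), and when any sample other than HF replicate 24 was left out (adjusted p 0.0388 to 0.109 over the 8 fits, where without HF replicate 23 the fold limit was not reached). Rgs7bp, the membrane anchor of R7 complexes, averaged 299 ± 45.3 with NC and 457 ± 169 with HF (log2 fold change 0.55, adjusted p = 0.228, limma), with 0.54 to 0.84 over its 3 probe sets. Gnb5 was 331 ± 16.5 in NC and 340 ± 14.5 in HF (0.04, 95% interval -0.10 to 0.17).

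Rgs17, the RZ member, carries a string of cysteines near its start and is best known as a regulator of Gz. On its brighter probe set (1450693_at) the intensity was 348, 367, 356 and 344 in NC and 307, 246, 338 and 338 in HF. All HF samples were below all NC samples, by a narrow margin for replicates 23 and 24 (338 against 344). Its mean log2 difference was -0.22 (95% interval -0.45 to 0.02, adjusted p = 0.291, limma; exact permutation p = 0.0286). On the second probe set (1439779_at) the groups overlapped, with NC at 189 to 206, HF at 158 to 195 and a log2 fold change of -0.12.

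HF replicate 22 often lay at the edge of the HF group. Of the 24 retained RGS probe sets it was the lowest HF sample on 13, among them all 4 of Rgs2 and all 3 of Rgs16, and the highest on 8, among them all 3 of Rgs4 and that of Rgs10. Over all retained probe sets it was the lowest on 24.6% and the highest on 22.3%. These probe sets are not independent, since many share a gene.

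Outside the 10 genes, 11 further RGS genes were listed and 4 were measured. Rgs1, which ends chemokine receptor signals in lymphocytes, had a mean of 503 ± 55.9 with NC and 269 ± 34.9 with HF (n = 4 pools each, SD), with no overlap (472 to 587 against 234 to 316). It fell by 0.91 on the log2 scale (standard error 0.11, adjusted p = 0.00213 over genes, limma), and in each of the 8 fits with 1 sample left out its call was kept. Rgs19, a regulator of Gi, went from 112 ± 5.90 with NC to 88.7 ± 7.36 with HF, by -0.34 on the log2 scale (adjusted p = 0.0259, limma), which did not reach 1.5-fold. Rgs12 (mean 12.7 with NC and 11.5 with HF) and Rgs20 (10.9 and 10.7) did not pass, at -0.13 and -0.03. Both lay close to the lowest level of retained probe sets (8.82), so their values say little about a change. Of the 6 measured B, T and NK cell markers 3 fell (1 to 5 over the other settings), and their summed intensity was 1593 to 2777 in NC and 398 to 965 in HF. The part of lymphocyte and macrophage content in the value of Rgs1 was not tested.

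The G proteins that RGS proteins act on, and the receptors and regulators of the same pathway, were given as 8 lists that include the further RGS genes and the R7 partners. Of their 122 genes 64 were measured, with 1 rise, 7 falls and 56 genes that did not pass, so that 12.5% passed, where 5.33% of all genes did. At a 2-fold limit 3 of the 64 passed, where 2.69% of all genes did. The lists were chosen with earlier results of these data known, so these shares cannot serve as a test of the pathway. The median log2 fold change of the 64 genes was -0.09.

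Of the 12 measured α subunits 1 fell. Gnai1, an inhibitory α subunit of the Gi class, was 2137 ± 261 in NC and 1308 ± 93.3 in HF (log2 fold change -0.70, standard error 0.09, adjusted p = 0.00330, limma), and 2 of its 3 probe sets passed. Its close relative Gnai2 averaged 11390 ± 564 with NC and 8730 ± 707 with HF, and its -0.39 on the log2 scale (adjusted p = 0.0148, limma) was under the fold limit. Gnas, the stimulatory α subunit, had -0.02 (95% interval -0.13 to 0.09). Of the 12 measured β and γ subunits Gng11 fell, from 566 ± 59.0 to 344 ± 36.2 (-0.72, standard error 0.10, adjusted p = 0.00363, limma), while Gng12 (0.13) and Gng4 (0.07) did not pass.

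Among 8 measured receptors that couple to Gi/o 3 fell, and the list had a median of -0.51. Cnr1, the cannabinoid receptor, was 462 ± 122 in NC and 156 ± 54.0 in HF (log2 fold change -1.60, standard error 0.29, adjusted p = 0.0121, limma). Sstr2, a somatostatin receptor, was 109 ± 28.6 in NC and 45.9 ± 7.99 in HF (-1.22, standard error 0.21, adjusted p = 0.00899, limma). S1pr1, a receptor of sphingosine-1-phosphate that is abundant on endothelial cells, was 583 ± 54.5 in NC and 286 ± 27.5 in HF (-1.03, standard error 0.09, adjusted p = 6.36e-04, limma). The NC and HF samples of each of these receptors did not overlap. The receptors of this list with the highest mean intensity, Sstr3 (-0.21) and Galr1 (-0.07), did not pass. Of the 25 receptors listed 12 were too dim to be retained, and others, among them Adra2a, had no probe set of their own. The part of the lower fibroblast, pericyte, Schwann cell and immune markers in the falls of Gnai1, Gng11, Cnr1 and Sstr2 was not tested. Of the 4 measured alpha cell markers Irx2 fell (-0.78), while Gcg had 0.01, and leaving out 1 sample gave 0 to 1 falls. Of the 5 measured delta and PP cell markers 0 passed, with a summed intensity of 146024 to 149608 in NC and 124427 to 138223 in HF. What part alpha, delta and PP cell content had in these falls was not tested either. Of the 11 measured endothelial markers 3 fell, with a median of -0.55. This count was 5 without NC replicate 4 or HF replicate 23, 7 with the arrays scaled on beta cell markers or with no fold limit, and 1 at a 2-fold limit. The part of these markers in the value of S1pr1 was not tested.

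Among 10 measured receptors that couple to Gq/11 1 fell. Agtr1a, the angiotensin II receptor, was 132 ± 13.2 in NC and 68.0 ± 6.13 in HF (log2 fold change -0.95, standard error 0.09, adjusted p = 8.90e-04, limma). With NC replicate 4 left out 3 receptors of this list passed, and with HF replicate 23 left out 2 did. Another 4 had an adjusted p under 0.05 without reaching 1.5-fold and are named after their values were seen. The calcium-sensing receptor Casr (0.44) and the purine receptor P2ry1 (0.54) were higher in HF, and the endothelin receptor Ednrb (-0.52) and the thrombin receptor F2r (-0.48) were lower. Ednrb was not uniform over its 3 probe sets, which ran from -0.52 to 0.19. Oxtr, the oxytocin receptor, had 0.46 (adjusted p = 0.241, limma).

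Of the 5 measured GRKs and arrestins, which uncouple active receptors, 0 passed, with Grk3 at -0.09 and Grk5 at -0.19. Of the 10 measured genes listed as other GTPase regulators 0 passed either, with Gpsm1 at 0.12 and Snx13 at 0.08. With HF replicate 21 left out 1 of these 10 passed. Gpsm3, named after its value was seen, had the lowest value of this list, at -0.90 (95% interval -1.52 to -0.28, adjusted p = 0.0834, limma).

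**Figure D4:**
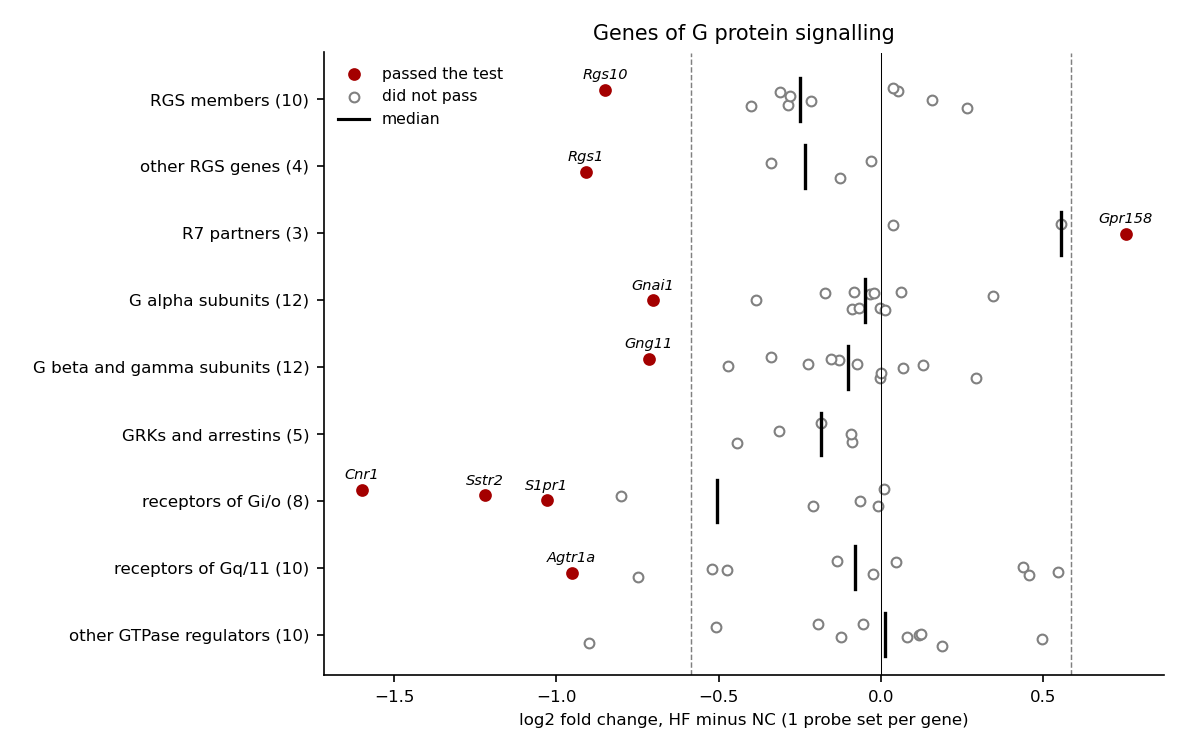
Log2 fold change (HF minus NC) of the 10 RGS genes and of the 64 measured genes of 8 lists of G protein signalling, 1 probe set per gene, with the number of measured genes in parentheses, the list medians as bars and dashed lines at 1.5-fold. Filled circles passed the test, with Gpr158 above 0 and Rgs10 and the 7 genes of the lists that fell below 0.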

How the data were processed

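Islet RNA of 8 pooled samples was measured on Affymetrix MOE 430v2 arrays. The authors summarised probes with GCRMA in ArrayAssist Lite 3.4, which corrects for background and normalizes across arrays, and the deposited values are intensity values on a linear scale. They were taken to log2 with no further scaling. In place of the present flags, which were not used here, probe sets were ranked by their third-highest intensity over the 8 samples and the top 25617 were retained (lowest 8.82). HF and NC were compared with limma 3.58.1 in R 4.3.3 (lmFit and eBayes, all 8 samples, no covariates) with Benjamini-Hochberg adjustment over retained probe sets, or over 12299 genes with the brightest retained probe set of each. Probe sets of the RGS genes are given with the adjusted p over probe sets and genes of other lists with that over genes, unless stated. The methods used SAM, which was not run here. A change needed an adjusted p under 0.05 together with a difference of 1.5-fold or more. Exact two-sided permutation tests used the 70 arrangements of 8 samples. Scripts were tested on simulated data.

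Gene names came from the platform annotation, in which 34958 probe sets had 1 gene, 932 several and 9211 none named here. No build was given, and no coordinates were used. The order of neighbouring genes came from the GRCm38.p6 annotation. The RGS genes and all lists were chosen with earlier results of these data known. The rule for named genes took every RGS probe set, of each other signalling list up to 5 genes that passed, or, where fewer than 2 passed, also the pair with the highest mean, and the 3 genes most like an RGS gene that passed. Marker genes and the other exceptions were chosen after their values were seen. The alternatives were other filters, scalings, variance moderation, sample weights, an unpaired Student test, fold limits, floors, means over probe sets and leaving out each sample. The methods name the Student test under general statistics and not for the arrays. Leaving out probe sets of suffix s or x was added after the values were seen. No scan date or other batch was given in the sources used here. The number of arrays limits the precision, and p-values measure the spread between pools.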

Additional observations from a re-analysis of the deposited data

Results flagged for a closer look

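Of the 52 groups of 4 samples formed by the 26 RGS probe sets and the 2 diets, 6 held a sample set far apart from the other 3, measured as its gap to the nearest sample over the range of the group. Chance gives about 1 in 20 groups, and probe sets of 1 gene are not independent. HF replicate 22 was set apart and low for Rgs2 on 1419248_at (0.841) and 1419247_at (0.831). NC replicate 1 was set apart and high for Rgs4 on 1416287_at (0.83) and 1448285_at (0.86). NC replicate 5 was set apart and high for Rgs3 on 1454026_a_at (0.917), and HF replicate 23 for Rgs9 on 1439635_at (0.837), a probe set too dim to be retained.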

How the results depend on the processing

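Over the 24 retained RGS probe sets and 21 other settings there were 500 values, since the stricter filter left out Rgs3 on 1454026_a_at and another setting the 3 probe sets of suffix s or x. Of these, 475 kept their direction and their side of the threshold, 9 lost the call of Rgs10, 1 gained a call (Rgs5 with no fold limit) and 15 on 6 probe sets turned their sign without being called. The count of RGS probe sets that passed was 1. It was 0 with no filter, with the Student test after adjustment and with a fold limit of 2, it was 2 where any fold counted, and leaving out 1 sample gave 0 to 1. By gene it was 0 with the adjusted Student test or a fold limit of 2, it was 2 where any fold counted, and leaving out 1 sample gave 0 to 1. It was 0 without NC replicate 1, NC replicate 2, HF replicate 21 or HF replicate 24. Rgs10 had -0.85 where its call was lost with no filter, the adjusted Student test and the 2-fold limit, and -0.95 to -0.74 without 1 sample. Its difference from the macrophage markers was 0.0248 with the stricter filter, 0.00990 with quantile normalization and 0.0146 without probe sets of suffix s or x, and -0.11 to 0.11 without 1 sample. Rgs16 on 1451452_a_at had 0.0101 with median centring, 0.0362 with sample weights and -0.14 to 0.13 without 1 sample. With scaling on beta cell markers, which put the median of all genes at -0.09, Rgs2 had -0.0414 on 1419248_at and -0.0379 on 1419247_at, and Rgs7 had -0.0585. Without 1 sample Rgs7 had -0.0579 to 0.14, Rgs5 on 1420941_at -0.0894 to 0.0131 and Rgs2 on 1443250_at -0.28 to 0.0432. Of the signalling genes 8 passed, and 14 did with no fold limit (3 higher) and 3 with a 2-fold limit. Cnr1 lost its call with the adjusted Student test (adjusted p = 0.0562 over genes) and Gnai1 with the mean of its probe sets (-0.57). Gpr158 lost its call in both of these settings (adjusted p = 0.116 with the Student test and 0.140 with limma on the mean). Where the count of tests or of samples did not set the change, the cause was not tested. No paired analysis was possible because the NC and HF samples share no replicate numbers.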
